A study of Mus musculus with 28 samples.

Results

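Retinal microglia sorted at 2 weeks after an intravitreal injection of lipopolysaccharide (LPS) were compared directly with microglia sorted at 18 h, to describe how the transcriptome moved as endotoxin-induced uveitis (EIU) resolved. The comparison comprised 12 of the 28 retinas of the series, 5 at 18 h (EIU 18 h) and 7 at 2 weeks (EIU 2 weeks), chosen by their labels and not by any measured value. Each retina was 1 sample. All donors were male heterozygotes of the Cx3cr1CreER:R26-tdTomato line on a C57BL/6 background that had received topical tamoxifen, so that a Cre recombinase expressed from the fractalkine receptor gene Cx3cr1 had switched on a red fluorescent protein. Live tdTomatohi DRAQ7- cells were sorted from each eye and their polyadenylated RNA was amplified to cDNA and sequenced. The naïve retinas came from the same line and received no LPS. They are given as a reference range and enter the fits of all 28 retinas, but not the main comparison. The promoter can tag any cell that expressed Cx3cr1 when tamoxifen was given. The paper reports that part of the microglia were tagged without tamoxifen. It also reports a high specificity of the tag for microglia at 18 h under the topical regime it chose. The labels do not tie retinas to mice. Both eyes of 1 mouse may therefore be present, and p-values measure the spread between retinas.

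Microglia are the resident macrophages of the retina. In the resting state they keep ramified processes in motion, and they depend on signalling through CSF1R and the TGF-beta receptors. The ADP receptor P2RY12 steers these processes towards injury. LPS is sensed by Toll-like receptor 4, which acts through NF-kappa B to induce cytokines and chemokines and through type I interferon to induce a set of antiviral genes. Resolution of inflammation comprises loss of these signals, clearance of dead cells by efferocytosis and return of the resting programme.

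The deposited table gave from 11600000 to 14400000 alignments per retina at 18 h and from 9930000 to 15400000 at 2 weeks. One library of each group stood apart. EIU 18 h replicate 4 had 6969 genes at an RPKM of at least 1 and EIU 2 weeks replicate 1 had 6644, against at least 9499 in each of the other retinas of the comparison, and both correlated least with the rest of their own group. Genes that were at an RPKM of at least 10 in the other 11 retinas were listed at 0 in these libraries, 14 in the first and 38 in the second, so that a value of 0 is reported only as listed at 0. Summed RPKM did not overlap between the groups, with 441474 to 509597 at 18 h and 338164 to 396037 at 2 weeks. The 18 h group held 4 retinas of experiment 1 and 1 of experiment 2, and the 2 weeks group held 4 and 3.

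Of 13164 genes tested, 237 (1.8%) differed at least 2-fold between 18 h and 2 weeks while their adjusted p did not exceed 0.05 (limma on log2(RPKM + 1), Benjamini-Hochberg adjustment). These differentially expressed genes (DEGs) comprised 103 genes higher at 2 weeks (0.782%) and 134 genes lower (1.02%). The median log2 fold change, given throughout as 2 weeks minus 18 h on the log2(RPKM + 1) scale, was 2.03 among the higher DEGs, -2.22 among the lower DEGs and 0.16 over all tested genes. After each retina was scaled to the same summed RPKM the split turned to 175 higher and 85 lower, and the median over all genes became 0.33. All 7 retinas at 2 weeks lay above all 5 at 18 h in 275 genes (2.09%) and below them in 272 (2.07%), and this held in 91 of the higher and 112 of the lower DEGs. Of the lower DEGs, 12 reached the filter (5 or more of all 28 retinas at an RPKM of 1 or above) only with the retinas at 18 h, where they were high, and so had to differ. They are included in the counts, and no test of them is given. In bulk RNA of sorted cells, fewer cells in a state and less RNA per cell cannot be told apart.

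**Figure D1:**
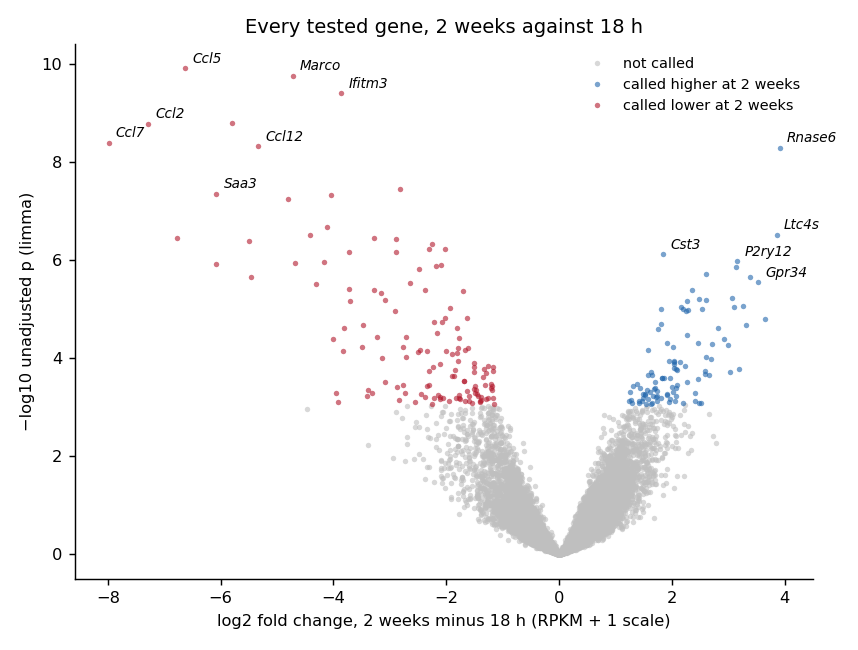
Log2 fold change of each tested gene (2 weeks minus 18 h, log2(RPKM + 1) scale, x axis) against −log10 of the unadjusted limma p (y axis), with called genes in blue (103 higher at 2 weeks) and red (134 lower). The lower genes reach -7.99 (Ccl7) and the higher genes 3.91 (Rnase6). The 12 lower genes that reached the filter only with the retinas at 18 h, Marco among them, are drawn too, and their p is no test.

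The chemokines, which recruit leukocytes, held the largest decreases. Of 26 listed chemokine genes, 21 passed the filter, 9 of them fell and 1 rose, and their median log2 fold change was -1.89. With equal summed RPKM 6 were called lower. Ccl7 (chromosome 11, 82045712 to 82047525, GRCm38), a ligand of the monocyte receptor CCR2, stood at 330.4, 1158, 1472, 2387 and 1315 RPKM in the 5 retinas at 18 h. At 2 weeks its lowest value was 0, its median 3.32 and its highest 20 RPKM. The groups were far apart and did not overlap, with a log2 fold change of -7.99 (SE 0.68, limma adjusted p = 8.53e-06).

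Ccl2 (chromosome 11, 82035571 to 82037453), the main CCR2 ligand, had 624, 1481, 1624, 4121 and 1799 RPKM at 18 h and from 1.71 to 30.6 RPKM at 2 weeks with a median of 8.04 (log2 fold change -7.28, SE 0.58, limma adjusted p = 4.42e-06). Ccl12 (chromosome 11, 82101845 to 82103400), another CCR2 ligand of the same gene cluster, had 22702, 27277, 27644, 97675 and 39186 RPKM at 18 h. At 2 weeks it ranged from 294 to 2028 RPKM with a median of 1144, a log2 fold change of -5.34 (SE 0.46, adjusted p = 8.53e-06). Ccl12 was thus still an abundant transcript at 2 weeks, inside its naïve range of 163 to 2758 RPKM. These neighbouring genes are related in sequence and reads could be divided between them in quantification.

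Ccl5, a chemokine made by activated myeloid and T cells, had 3189, 5986, 6646, 3692 and 2065 RPKM at 18 h and from 16 to 93.7 RPKM at 2 weeks with a median of 42.3. The groups did not overlap (log2 fold change -6.63, SE 0.44, limma adjusted p = 1.16e-06). Cxcl13, which attracts B cells, had 264, 1782, 1361, 1300.4 and 1235 RPKM at 18 h and from 1.07 to 88.5 RPKM at 2 weeks with a median of 6.57 (log2 fold change -6.78, SE 0.80, adjusted p = 0.000274). In 4 of the 7 retinas at 2 weeks Cxcl13 lay outside the naïve range, which ended at 3.75 RPKM.

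Cxcl10, an interferon-induced ligand of CXCR3, fell less and overlapped: it had 87.2, 70.9, 89.4, 18.7 and 93.7 RPKM at 18 h, and at 2 weeks from 0 to 50.7 RPKM with a median of 5.65 (log2 fold change -3.41, SE 0.79, limma adjusted p = 0.0405). Its call was kept in 2 of the 12 fits that left out 1 retina each. Ccl3 (-3.29), Ccl4 (-3.92) and Ccl22, which was listed at 0 in every retina at 2 weeks, also fell and were named after their values were seen. Ccl6 moved the other way, from 85.5, 96.8, 44.9, 75.7 and 55.7 RPKM at 18 h to between 164 and 354 RPKM at 2 weeks with a median of 253, and the groups did not overlap (log2 fold change 1.76, SE 0.30, adjusted p = 0.00466). Ccl6 is a chemokine that resting microglia express.

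**Figure D2:**
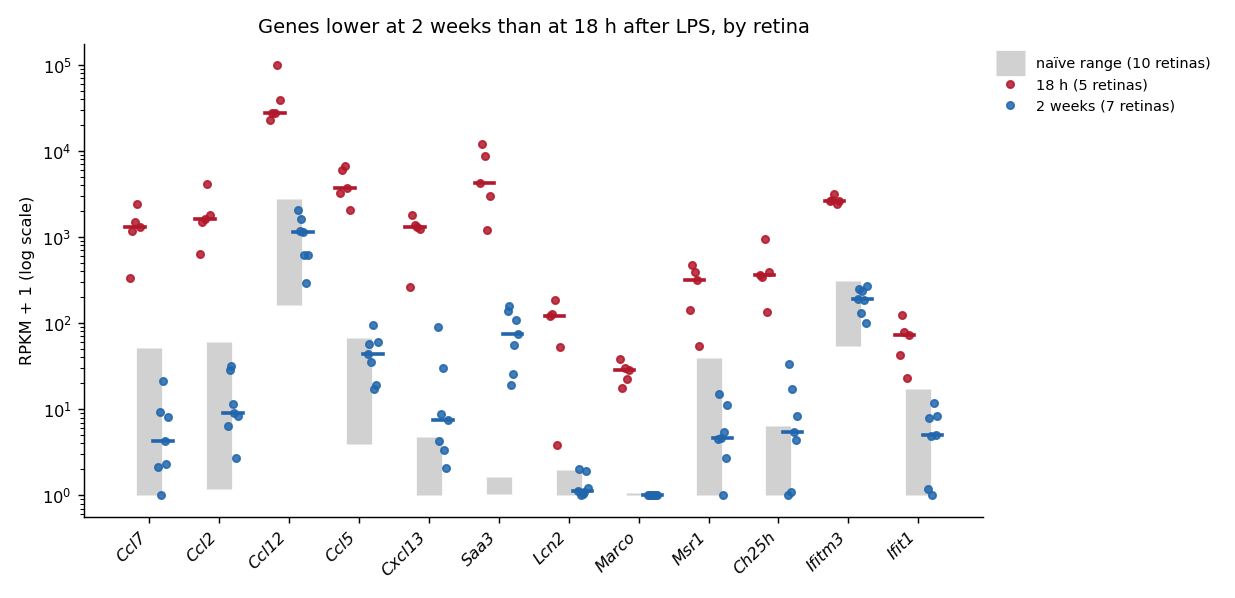
RPKM + 1 (log axis) of 12 genes called lower at 2 weeks, with each retina as a point (red, 5 at 18 h; blue, 7 at 2 weeks), the group median as a bar and the range of the 10 naïve retinas in grey. Red and blue points do not overlap in any of the 12 genes, and Saa3 is the gene whose blue points all lie above the grey range. Marco reached the filter only with the retinas at 18 h and so had to differ.

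Acute phase and antimicrobial genes fell with the chemokines. Of 25 listed genes 13 passed the filter, 2 of them (Wfdc21 and Marco) only with the retinas at 18 h. Of the 13, 7 were called lower, these 2 included, none rose, and the median log2 fold change was -2.88. Saa3 (chromosome 7, 46711998 to 46715700), a serum amyloid A made by macrophages, had 4173, 12044, 8705, 1198 and 3009.6 RPKM at 18 h and from 18.2 to 155 RPKM at 2 weeks with a median of 73.2 (log2 fold change -6.08, SE 0.62, limma adjusted p = 5.59e-05). Saa3 had not come back to its naïve level, which was at most 0.649 RPKM, and no retina at 2 weeks lay inside the naïve range.

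Lcn2, the iron-siderophore-binding protein lipocalin 2, had 121, 126, 182, 2.89 and 51.8 RPKM at 18 h and at most 0.995 RPKM at 2 weeks (log2 fold change -5.46, SE 0.75, limma adjusted p = 0.000807). Ch25h, the enzyme that makes 25-hydroxycholesterol, had 356, 343, 956, 134 and 395 RPKM at 18 h and from 0 to 32.3 RPKM at 2 weeks with a median of 4.49 (log2 fold change -6.08, SE 0.79, adjusted p = 0.000535). Neither gene overlapped between the groups. Wfdc21 had 37.3, 119.6, 69.8, 102 and 15.1 RPKM at 18 h and was listed at 0 in all 7 retinas at 2 weeks. Marco, a scavenger receptor for bacterial ligands, had 37.6, 16.4, 28.9, 21.7 and 27.3 RPKM at 18 h and was likewise listed at 0 in all 7 retinas at 2 weeks. Both genes are among the 12 that reached the filter only with the retinas at 18 h, so no fold change or p is given. Wfdc21 was listed at 0 in every naïve retina too, and Marco reached at most 0.0583 RPKM there.

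Interferon-stimulated genes fell in part. Of 57 listed genes 55 passed the filter, 8 fell and none rose, and the median log2 fold change was -0.98, with 48 of the 55 below 0. Ifitm3 (chromosome 7, 141009586 to 141010770, minus strand), a membrane protein that blocks viral entry, had 2576, 2689.9, 3147, 2431 and 2638 RPKM at 18 h. At 2 weeks it ranged from 98 to 266 RPKM with a median of 188, and the groups did not overlap (log2 fold change -3.87, SE 0.28, limma adjusted p = 1.73e-06). Bst2 (chromosome 8, 71534255 to 71537456, minus strand), the virus-tethering protein tetherin, had 457, 458, 671, 323 and 501 RPKM at 18 h and from 72.3 to 129.7 RPKM at 2 weeks with a median of 107 (log2 fold change -2.26, SE 0.27, adjusted p = 0.000304). Bst2 did not overlap between the groups, and 3 of the 7 retinas at 2 weeks lay inside its naïve range of 59.6 to 94.1 RPKM.

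The promoters of these members are shown because they fell together and their promoter windows hold the motif known for this gene class. The windows are 300 bases from RefSeq (GRCm38.p6), from 250 bases before to 50 bases after the start, written 5′ to 3′ on the strand of the gene, which is the minus strand for both, with matches to the core of the interferon-stimulated response element (GAAA, any 2 bases, GAAA, on either strand) in capitals.
Ifitm3, chr7:141010695-141010994: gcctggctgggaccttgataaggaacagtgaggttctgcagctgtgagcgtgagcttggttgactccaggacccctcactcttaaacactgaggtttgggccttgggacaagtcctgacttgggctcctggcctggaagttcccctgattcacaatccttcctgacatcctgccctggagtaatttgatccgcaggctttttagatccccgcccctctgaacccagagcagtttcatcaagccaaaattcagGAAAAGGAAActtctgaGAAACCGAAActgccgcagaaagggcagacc
Bst2, chr8:71537423-71537722: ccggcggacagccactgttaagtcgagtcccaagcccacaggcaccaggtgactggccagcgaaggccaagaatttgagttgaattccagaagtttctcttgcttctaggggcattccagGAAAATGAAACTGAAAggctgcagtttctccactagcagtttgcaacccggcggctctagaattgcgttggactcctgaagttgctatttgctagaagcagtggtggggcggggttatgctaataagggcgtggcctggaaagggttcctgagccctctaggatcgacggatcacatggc
Both windows hold 2 matches. Those of Ifitm3 begin at bases 3 and 20 after the start, and those of Bst2 overlap each other, beginning 130 and 124 bases before it (positions -130 and -124). A promoter was found for 46 of the 57 listed genes, and 23 of the 46 (50%) held the motif, against 1079 of 27025 genes with a promoter (3.99%). Among the called members 7 had a promoter and all 7 held it. A match describes these letters and is no measure of binding.

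Ifit1, an inhibitor of viral translation, had 41.5, 123, 77, 22.2 and 71.4 RPKM at 18 h and from 0 to 10.8 RPKM at 2 weeks with a median of 4.05 (log2 fold change -3.81, SE 0.64, limma adjusted p = 0.00449). Isg15, a ubiquitin-like modifier, had 36.8, 104, 86.6, 39.3 and 90.4 RPKM at 18 h and from 0 to 19.8 RPKM at 2 weeks with a median of 4.62 (log2 fold change -3.49, SE 0.64, adjusted p = 0.00905). Neither gene overlapped. Of 15 interferon-gamma-induced GTPases that passed the filter, 1 fell: Gbp2, with 42, 19, 68.5, 13.6 and 15.2 RPKM at 18 h and at most 6.89 RPKM at 2 weeks (log2 fold change -3.15, SE 0.61, adjusted p = 0.0129). The number of interferon-stimulated genes called was sensitive to the libraries: 20 were called lower without the low-gene retinas, and 6 with equal summed RPKM.

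Among 31 cytokine genes that passed the filter 4 fell and 2 rose, with a median log2 fold change of -0.09. Il1rn, the antagonist of the interleukin-1 receptor, had 37.6, 52, 83.6, 14.2 and 8.78 RPKM at 18 h and at most 0.691 RPKM at 2 weeks, without overlap (log2 fold change -4.81, SE 0.50, limma adjusted p = 6.15e-05). Il18bp, a secreted decoy for interleukin-18, had 17.9, 15.3, 20.5, 5.74 and 12.3 RPKM at 18 h and at most 4.1 RPKM at 2 weeks, also without overlap (log2 fold change -3.16, SE 0.46, adjusted p = 0.00136). Both products inhibit the action of a cytokine.

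Il12b, the p40 chain that interleukin-12 and interleukin-23 share, had 25.9, 59.7, 67.4, 0.94 and 12.3 RPKM at 18 h and at most 1.23 RPKM at 2 weeks, so that EIU 18 h replicate 4 overlapped with the 2-week retinas (log2 fold change -4.01, SE 0.71, limma adjusted p = 0.00681). Tnf had 49.5, 8.98, 39.2, 21.2 and 9.94 RPKM at 18 h and from 0.0514 to 13.2 RPKM at 2 weeks with a median of 1.41 (log2 fold change -3.08, SE 0.67, adjusted p = 0.0274). One retina at 2 weeks overlapped, and the Tnf call was kept in 7 of the 12 fits that left out 1 retina each. Il16 rose by 1.95 on the log2 scale (limma adjusted p = 0.0145) from at most 2.56 RPKM at 18 h, and Pdgfb by 1.86 (adjusted p = 0.0243) from at most 2.16 RPKM.

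The list of resolution mediators and their receptors moved both ways. Of 29 members that passed the filter 4 rose and 3 fell, with a median log2 fold change of 0.31. The risers were enzymes and receptors of lipid and cytokine signals. Ltc4s, Hpgd and Tgfbr1 are also on the homeostatic list below and are counted there again. Ltc4s (chromosome 11, 50236461 to 50238616), the leukotriene C4 synthase, had 31.7, 9.97, 5.24, 10.9 and 24.8 RPKM at 18 h and from 94.6 to 451 RPKM at 2 weeks with a median of 223 (log2 fold change 3.86, SE 0.45, limma adjusted p = 0.000274). Hpgd, which degrades prostaglandin E2 and other lipid mediators, had 123, 51.4, 32.2, 108 and 68.5 RPKM at 18 h and from 244 to 508 RPKM at 2 weeks with a median of 299.7 (log2 fold change 2.26, SE 0.35, adjusted p = 0.00235). Neither gene overlapped between the groups, and 3 of the 7 retinas at 2 weeks lay inside the naïve range of Ltc4s, which began at 225 RPKM.

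Tgfbr1, the type I receptor of TGF-beta, had 19.8, 13.3, 12.6, 17.1 and 41.2 RPKM at 18 h and from 68 to 126 RPKM at 2 weeks with a median of 92.5 (log2 fold change 2.27, SE 0.34, limma adjusted p = 0.00178). Il10ra, the ligand-binding chain of the interleukin-10 receptor, had 7.96, 5.1, 6, 0.982 and 5.79 RPKM at 18 h and from 13.5 to 44.6 RPKM at 2 weeks (log2 fold change 1.91, SE 0.44, adjusted p = 0.0391). Both were higher in every retina at 2 weeks than in any at 18 h. Fpr2, a receptor shared by serum amyloid A, bacterial peptides, annexin A1 and lipoxin A4, fell together with Il1rn and Il18bp. It had 12.7, 26.6, 14.4, 2.51 and 10.7 RPKM at 18 h and at most 7.61 RPKM at 2 weeks, with some overlap (log2 fold change -2.56, SE 0.62, adjusted p = 0.0465).

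Phagocytic receptors also divided. Of 30 members of the efferocytosis and phagocytosis list that passed the filter 3 rose and 4 fell. Over all tested genes 0.782% rose and 1.02% fell. The median log2 fold change of the list was 0.45, with 21 of the 30 above 0, against 0.16 over all tested genes. The fallers were scavenger and Fc receptors. Msr1, the class A scavenger receptor, had 140.4, 465, 392, 314 and 53.6 RPKM at 18 h and from 0.0133 to 13.9 RPKM at 2 weeks with a median of 3.6 (log2 fold change -5.50, SE 0.66, limma adjusted p = 0.000286). Fcgr4, an activating receptor for IgG, had 547, 581, 833, 436 and 474 RPKM at 18 h and from 58.2 to 129 RPKM at 2 weeks with a median of 77.6 (log2 fold change -2.83, SE 0.28, adjusted p = 5.17e-05). Fcer1g, the signalling chain it needs, fell from between 4947 and 8427 RPKM to between 1153 and 2696 RPKM (log2 fold change -1.70, SE 0.25, adjusted p = 0.00125). None of these overlapped. Marco, given above without a test, was counted as the fourth.

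The risers on this list bind lipid or dead cells. Trem2 and Mertk are counted on the homeostatic list as well. Trem2, a receptor for lipids and apolipoproteins, had 59, 22.3, 16.1, 15.8 and 48.7 RPKM at 18 h and from 113 to 243 RPKM at 2 weeks with a median of 184 (log2 fold change 2.61, SE 0.39, limma adjusted p = 0.00177). Mertk, the tyrosine kinase that recognises bridged phosphatidylserine, had 12.8, 9.08, 14.3, 11.4 and 15.9 RPKM at 18 h and from 23.3 to 46.1 RPKM at 2 weeks with a median of 32.6 (log2 fold change 1.28, SE 0.30, adjusted p = 0.0445). Itgb5, a chain of the integrin alpha V beta 5, had from 15.6 to 30.6 RPKM at 18 h and from 44.7 to 285 RPKM at 2 weeks (log2 fold change 2.09, SE 0.43, adjusted p = 0.0193). The groups did not overlap in any of the 3, although the Mertk call was kept in only 2 of the 12 fits that left out 1 retina.

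Homeostatic microglial genes were higher at 2 weeks. Of 35 listed genes 34 passed the filter, 14 rose and none fell, and 33 of the 34 had a positive log2 fold change with a median of 1.62. The 14 include Ltc4s, Hpgd, Tgfbr1, Trem2 and Mertk, which were given above under other lists. Gpr34 (chromosome X, 13632089 to 13640858), a receptor for lysophosphatidylserine, had 325, 91.6, 46, 45.6 and 377 RPKM at 18 h and from 1103 to 2025 RPKM at 2 weeks with a median of 1397 (log2 fold change 3.53, SE 0.49, limma adjusted p = 0.00102). P2ry12 (chromosome 3, 59216272 to 59262871), the ADP receptor that steers processes towards injury, had 332, 139, 104, 88.3 and 360.3 RPKM at 18 h and from 642 to 2121 RPKM at 2 weeks with a median of 1929 (log2 fold change 3.16, SE 0.41, adjusted p = 0.00053). Neither overlapped, and within the 18 h group replicates 1 and 5 lay above the others in both genes.

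Siglech, a sialic acid-binding lectin used as a microglial marker, had 67.2, 16.4, 19.6, 6.74 and 57.3 RPKM at 18 h and from 154 to 351 RPKM at 2 weeks with a median of 201 (log2 fold change 3.10, SE 0.48, limma adjusted p = 0.00225). Slc2a5, a fructose transporter, rose from at most 8.26 RPKM to between 13.7 and 81.9 RPKM (log2 fold change 3.31, SE 0.55, adjusted p = 0.00408). Cst3, the cysteine protease inhibitor cystatin C, was abundant at both times, with 10208, 6336, 5455, 7758 and 6203 RPKM at 18 h and from 16593 to 34499 RPKM at 2 weeks (log2 fold change 1.84, SE 0.23, adjusted p = 0.000404). In all 3 genes the groups did not overlap.

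Csf1r, the receptor that microglia need for survival, Rnase4 and the organic anion transporter Slco2b1 were named after their values were seen. Csf1r ranged from 33.7 to 77.3 RPKM at 18 h and from 147 to 426 RPKM at 2 weeks (log2 fold change 2.16, limma adjusted p = 0.00225), Rnase4 rose by 2.29 and Slco2b1 by 2.22 on the same scale. The remaining members of the list were not all called. Cx3cr1, the gene whose promoter drove the Cre recombinase, had 98.2, 43, 74.8, 57.2 and 65.9 RPKM at 18 h and from 36.3 to 259 RPKM at 2 weeks with a median of 77.7, so the groups overlapped fully (log2 fold change 0.50, SE 0.42, adjusted p = 0.608). Tmem119, a surface marker of microglia, had 183, 67.5, 92.2, 29.9 and 85.9 RPKM at 18 h and from 93.9 to 678 RPKM at 2 weeks with a median of 172 (log2 fold change 1.39, SE 0.53, adjusted p = 0.216). The core of the PU.1 motif, GAGGAAGT on either strand, was found in the promoters of 2 of 27 homeostatic genes (7.41%) and of 997 of 27025 genes in all (3.69%), so no such promoter is shown.

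**Figure D3:**
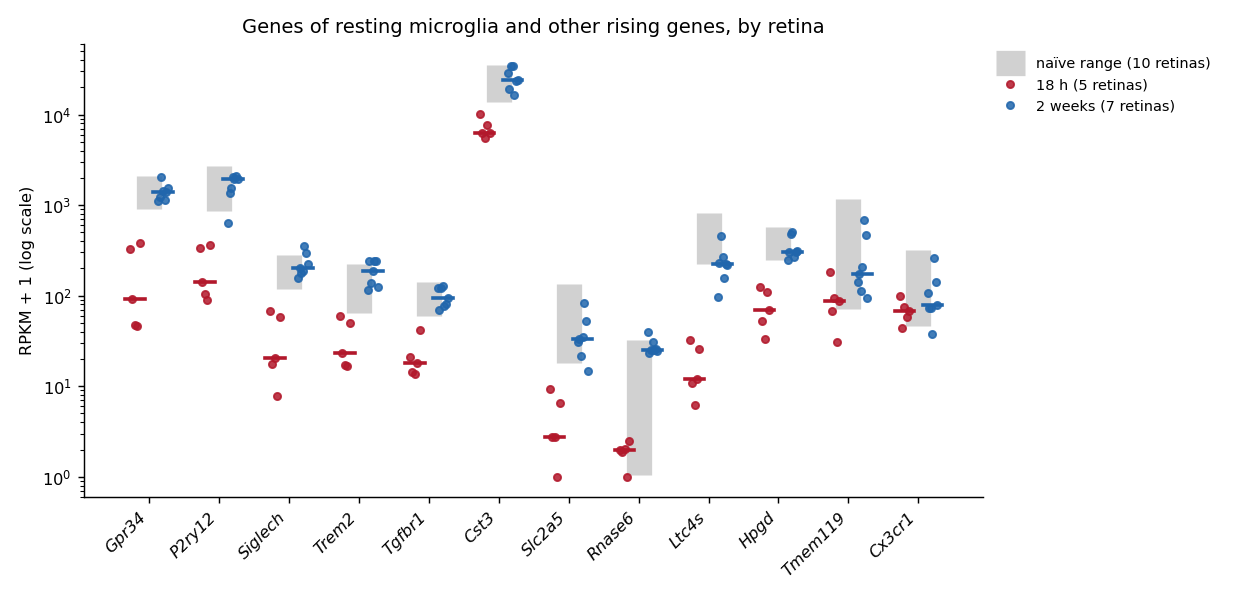
RPKM + 1 (log axis) of 10 genes called higher at 2 weeks and of Tmem119 and Cx3cr1, which were not called, with each retina as a point (red, 5 at 18 h; blue, 7 at 2 weeks), the group median as a bar and the range of the 10 naïve retinas in grey. In the first 10 genes every blue point lies above every red point, whereas Tmem119 and Cx3cr1 overlap.

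The largest increase of any tested gene was that of Rnase6 (chromosome 14, 51123908 to 51132187), an antimicrobial ribonuclease, with 0.973, 0.898, 1.05, 0 and 1.49 RPKM at 18 h and from 22 to 38.4 RPKM at 2 weeks with a median of 24.1 (log2 fold change 3.91, SE 0.34, limma adjusted p = 8.53e-06). Sult1a1, a sulfotransferase, had 13.7, 9.65, 2.81, 0 and 6.88 RPKM at 18 h and from 31.3 to 145 RPKM at 2 weeks (log2 fold change 3.66, SE 0.59, adjusted p = 0.00324). Thrsp, a protein of lipogenesis, had 6.76, 5.71, 5.1, 0.0402 and 5.5 RPKM at 18 h and from 26.2 to 80.4 RPKM at 2 weeks (log2 fold change 3.26, SE 0.50, adjusted p = 0.0022). All 3 were separated between the groups.

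Adgrg1, an adhesion receptor of the G protein-coupled family, rose by 2.82 (SE 0.48, limma adjusted p = 0.00453), Lsp1, an actin-binding protein of leukocytes, by 3.00 (SE 0.54, adjusted p = 0.00836), and Tnfrsf17, the receptor BCMA, by 2.93 (SE 0.52, adjusted p = 0.00671). Among 14 genes of MHC class II presentation that passed the filter 1 rose, H2-Ob, a chain of the peptide-loading modulator H2-O, with at most 2.47 RPKM at 18 h and from 6.38 to 26.1 RPKM at 2 weeks (log2 fold change 3.13, SE 0.41, adjusted p = 0.00057). Of 36 G protein-coupled receptors that passed the filter 4 rose, Gpr34, P2ry12, Adgrg1 and Gpr155 (log2 fold change 1.92, adjusted p = 0.00786), and 3 fell, Fpr2, C3ar1 and Adgre1. C3ar1, the receptor of complement C3a, and Adgre1, the macrophage antigen F4/80, changed by -1.64 and -1.77 (adjusted p = 0.0371 and 0.0419). None of these 3 fallers was called with equal summed RPKM. On the complement list, 19 of whose genes passed the filter, 1 gene was called in each direction, and the faller was C3ar1.

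The list of disease-associated microglial genes, a state in which lipid handling and lysosomal genes are raised, was split, with 4 of 28 higher, 4 lower and a median log2 fold change of 0.03. Trem2, Ccl6, the tetraspanin Cd9 (1.38, limma adjusted p = 0.0297) and the protease Ctsd (2.52, adjusted p = 0.047) rose. Ch25h, the iron store Fth1, the surface glycoprotein Cd52 and the oxidase subunit Cybb fell. Of 35 lysosomal genes that passed the filter 4 rose and 1 fell, with a median of 0.34. The risers included Ctsd and the glycan-degrading hydrolases Man2b1 (2.04, adjusted p = 0.0179) and Naglu (2.07, adjusted p = 0.041). The faller was Ctsc, a protease that activates granule serine proteases, with 1861, 2031, 1751, 1342 and 1587 RPKM at 18 h and from 169 to 529 RPKM at 2 weeks (log2 fold change -2.19, SE 0.29, adjusted p = 0.000564).

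Genes of redox defence and immunometabolism fell or did not pass the test. Of 29 members that passed the filter 5 fell and none rose, with a median log2 fold change of -0.45. Acod1, the enzyme that makes itaconate, had 14.5, 4.84, 22.9, 4.94 and 4.52 RPKM at 18 h and at most 1.76 RPKM at 2 weeks (log2 fold change -2.90, SE 0.46, limma adjusted p = 0.00235). Sod2, the mitochondrial superoxide dismutase, had 131, 256, 217, 90.5 and 64.6 RPKM at 18 h and from 13.7 to 26.4 RPKM at 2 weeks (log2 fold change -2.64, SE 0.37, adjusted p = 0.00104). Fth1, the ferritin heavy chain, had 20020.4, 35418, 38419, 6327 and 19172 RPKM at 18 h and from 1147 to 5860.4 RPKM at 2 weeks (log2 fold change -2.71, SE 0.48, adjusted p = 0.00633). None of these overlapped, and Prdx5 (-1.80) and Cybb (-2.71) were the others. Glycolytic genes gave no call in either direction among 20 tested.

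Some genes of protein synthesis and turnover fell. Of 26 genes of the unfolded protein response 4 fell, Manf, Hspa5, Dnajc3 and Sdf2l1, and the median log2 fold change was -0.60. Manf, an endoplasmic reticulum stress protein, had 223, 366, 149.8, 449 and 264 RPKM at 18 h and from 30.3 to 73.1 RPKM at 2 weeks (log2 fold change -2.48, SE 0.33, limma adjusted p = 0.000619). Of 47 proteasome genes 4 fell and 46 had a negative log2 fold change, with a median of -0.85. Psme2, a subunit of the interferon-induced proteasome activator PA28, had 458, 562, 476, 359 and 428 RPKM at 18 h and from 89.4 to 142 RPKM at 2 weeks (log2 fold change -2.03, SE 0.25, adjusted p = 0.000361). It was also the called gene among 22 of MHC class I presentation. With equal summed RPKM, 2 proteasome genes and 1 gene of the unfolded protein response were called. A near-identical copy of Psme2 could share its reads.

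Of 87 cytosolic ribosomal protein genes 10 fell and none rose, 84 had a negative log2 fold change, and the median was -0.95. Rpl12 had 45.8, 44.9, 28.9, 79.9 and 49.3 RPKM at 18 h and from 8.85 to 22.1 RPKM at 2 weeks, without overlap (log2 fold change -1.82, SE 0.34, limma adjusted p = 0.0106), and Rpl27 changed by -1.79 (adjusted p = 0.0145). The call count of this list was 4 with equal summed RPKM and 31 without the low-gene retinas. Processed pseudogenes of these genes are numerous, so their RPKM is uncertain where reads were divided. Among 77 mitochondrial ribosomal protein genes none was called, with a median of -0.49. Among 77 oxidative phosphorylation genes none was called, and their median of -0.31 became -0.01 with equal summed RPKM. Of 34 genes of cell motility 2 fell, Actb (-1.50, adjusted p = 0.0384) and the actin-sequestering Tmsb4x (-1.16, adjusted p = 0.0193), and neither was called with equal summed RPKM. Bcl2a1a, an anti-apoptotic gene with near-identical copies that could share its reads, changed by -1.21 (adjusted p = 0.0299) and was the called gene among 28 of the BCL2 family, though not with equal summed RPKM.

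**Figure D4:**
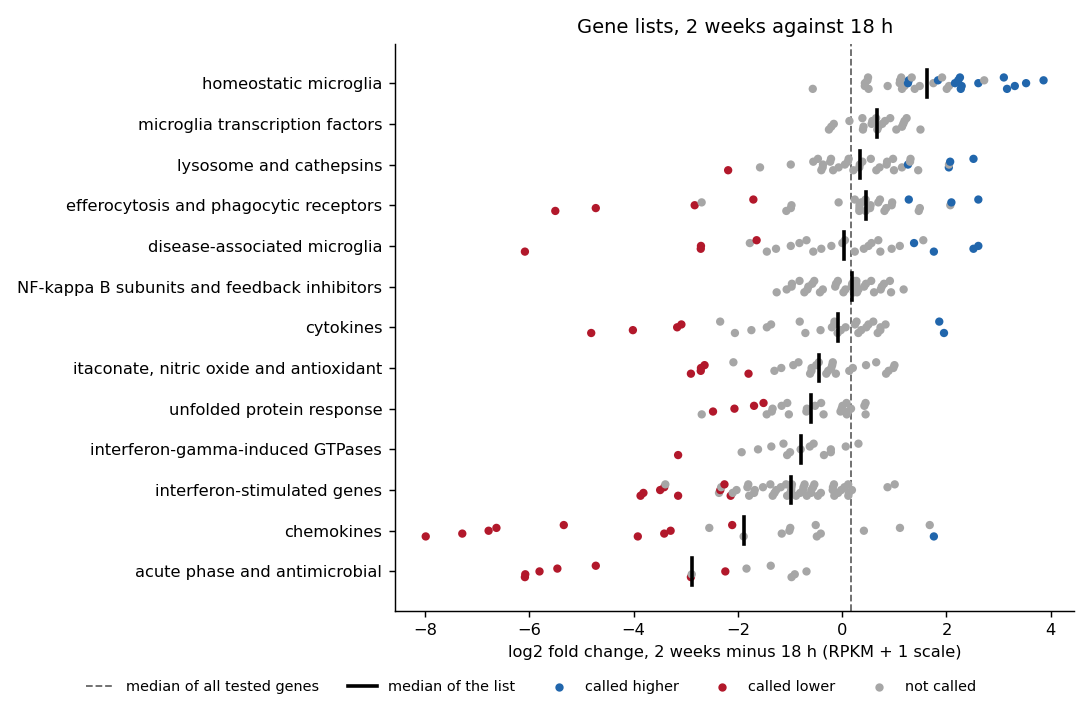
Log2 fold change of each tested gene (x axis, 2 weeks minus 18 h, log2(RPKM + 1) scale) by gene list (y axis), with genes called higher in blue, called lower in red and not called in grey, the median of each list as a black bar and the median of all tested genes (0.16) as a dashed line. List medians run from -2.88 for acute phase genes to 1.62 for homeostatic microglial genes.

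Lists of transcription factors and signalling genes held few calls. None of 21 microglial transcription factors was called. Their median log2 fold change was 0.67, against 0.16 over all tested genes, and 18 of the 21 had a positive value. With equal summed RPKM 3 were called higher, and with all 28 retinas in the fit 3 were as well. None of 37 genes of NF-kappa B subunits and their feedback inhibitors was called, with a median of 0.19, which turned to -0.02 under quantile normalisation. Of 23 Toll-like receptor genes 1 was called, the kinase Irak2, which rose from at most 2.39 RPKM to between 2.81 and 13.4 RPKM (log2 fold change 1.80, SE 0.42, limma adjusted p = 0.0427). It was called in 2 of the 12 fits that left out 1 retina and not with all 28 retinas in the fit (limma adjusted p = 0.0698). None of 32 cell cycle genes and none of 22 immediate early genes was called, with medians of -0.45 and -0.06. The kappa B core (GGGA, any 2 bases, TTCC, on either strand) was found in the promoters of 4 of 18 chemokine genes (22.2%), Cxcl1, Cxcl2, Cxcl3 and Cxcl10, of 1 of the 6 called chemokines with a promoter (16.7%), Cxcl10, of 3 of 31 NF-kappa B genes (9.68%) and of 441 of 27025 genes in all (1.63%).

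Of 17 genes that the study named for mRNA-Seq or for its follow-up, Gpr34, P2ry12, Siglech and Mertk rose and Cxcl10 and Bst2 fell, and the others did not pass the test. These genes had been chosen in the study on retinas that include these. Milr1, an inhibitory receptor of mast cells, had 114, 144, 134, 60 and 89.3 RPKM at 18 h and from 3.1 to 47.8 RPKM at 2 weeks, without overlap, and narrowly missed the threshold (log2 fold change -2.08, SE 0.53, limma adjusted p = 0.0588). Map3k8, a kinase of the LPS response, gave -1.26 (SE 0.41, adjusted p = 0.145) and Slamf1 -0.96 (SE 0.33, adjusted p = 0.169).

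The anaphylatoxin receptor C5ar1 had 220.4, 106, 187, 33.2 and 113 RPKM at 18 h and from 16.9 to 144 RPKM at 2 weeks (log2 fold change -0.97, SE 0.56, limma adjusted p = 0.436). The adhesion receptor Cd44 (-0.96, SE 0.48, adjusted p = 0.368) and the death receptor Fas (-0.43, SE 0.78, adjusted p = 0.834) also overlapped between the groups. The inhibitory receptor Lair1 (0.44, SE 0.32, adjusted p = 0.554) and the kinase Axl (0.69, SE 0.38, adjusted p = 0.41) likewise did not pass the test.

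Medians at 2 weeks lay mostly within the naïve range, which was wide for some genes. Naïve replicates 3 and 4 had 7088 and 6552 genes at an RPKM of at least 1. For Rnase6 the range reached down to 0.0421 RPKM, and 4 of the 5 retinas at 18 h lay inside it too. The 2-week median was inside the range of the 10 naïve retinas in 102 of the 103 higher DEGs and in 128 of the 134 lower DEGs. All 7 retinas were inside it in 45 and 50, respectively. At 18 h none of the 5 retinas was inside that range in 53 of the higher and 95 of the lower DEGs. These counts were not taken over all tested genes, so they do not show whether the DEGs differ from other genes in this respect. In a fit of all 28 retinas, the higher DEGs had a median log2 difference from naïve of -1.92 at 18 h and 0.15 at 2 weeks, and the lower DEGs 2.24 and 0.08. The same naïve retinas enter both differences, and the DEGs were chosen for their difference between these same 18 h and 2-week retinas. The medians are therefore a description and no independent support. Of the 237 DEGs, 1 differed from naïve at 2 weeks, Saa3 (log2 difference 5.60, limma adjusted p = 7.6e-05).

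Markers of other cells moved between the groups as well. Rod markers, 14 of which passed the filter, summed to 1906 to 3209 RPKM at 18 h and 3055 to 7019 RPKM at 2 weeks. The summed cone and bipolar markers (146 to 260 against 296 to 557 RPKM) and Müller glia and astrocyte markers (51.7 to 132 against 139 to 254 RPKM) did not overlap. No gene of these 3 lists was called, and their part in the genes that rose was not tested. Naïve retinas spanned 2508 to 7439 RPKM for rod markers. In the other direction, 12 monocyte markers summed to 195 to 372 RPKM at 18 h and 21.4 to 186 RPKM at 2 weeks. Of these, Ms4a4c alone had 134 to 315 RPKM at 18 h and 12.1 to 40.6 RPKM at 2 weeks. It made up most of the sum in each retina at 18 h, and no sum without it was taken. Ms4a4c, an interferon-responsive gene of this list, fell (log2 fold change -3.28, SE 0.39, limma adjusted p = 0.000274), while the defining monocyte gene Ly6c2 was at most 4.68 RPKM in any retina. Plac8 had 6.63, 3.18, 6.69, 0 and 27.5 RPKM at 18 h. At 2 weeks it had 26.6 RPKM in replicate 1 and a median of 0.418. It was not called (limma adjusted p = 0.463), but was lower without both low-gene retinas (limma adjusted p = 0.00606). Of the 4 genes of this list that passed the filter, 3 had a negative log2 fold change and 1 a positive one.

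Among lymphocyte markers, whose sums overlapped, Nkg7, a cytotoxic granule gene, had from 5.77 to 86.4 RPKM at 18 h and at most 0.907 RPKM at 2 weeks, and it reached the filter only with the retinas at 18 h, so no test is given. The immunoglobulin heavy chain gene Ighm rose (log2 fold change 2.65, limma adjusted p = 0.022). Gzma, a granule protease that did not pass the filter, had 0, 23, 0, 238 and 54.7 RPKM at 18 h and was listed at 0 in all retinas at 2 weeks. Neutrophil markers summed to at most 29.1 RPKM at 18 h and 66.6 RPKM at 2 weeks, with Mpo and Stfa1 listed at 0 in all 12. Csf3r, a receptor of this list that microglia also express, held 2.86 to 11.7 RPKM at 18 h and 6.77 to 65.5 RPKM at 2 weeks. Of the defining neutrophil genes, S100a8 had 0, 3.07, 9.24, 0 and 0.638 RPKM at 18 h and at most 0.342 RPKM at 2 weeks. S100a9 had 0.994, 2.55, 5.15, 0 and 0 RPKM at 18 h and was listed at 0 in all 7 retinas at 2 weeks. Markers of perivascular macrophages varied widely within both groups, from 11.4 to 48.8 RPKM in sum at 18 h and from 7.4 to 379.5 RPKM at 2 weeks, and none of them was called. Endothelial markers summed to at most 7.37 RPKM and erythrocyte markers to at most 67.9 RPKM. The part of these cells in the genes that fell was not tested.

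The number of calls depended on the retinas included. All 103 higher and all 134 lower DEGs had the same sign in experiment 1 and in experiment 2, with medians of 1.98 and 1.78 for the higher genes and -2.32 and -2.05 for the lower genes. They had been chosen in the fit that holds both experiments, so the shared sign is a description and no independent support. Experiment 2 held 1 retina at 18 h and gives no test of its own. Several calls named above were lost in fits that left out single retinas. Of the 12 fits that left out 1 retina each, Adgre1 was called in 1, Il10ra, Naglu and Actb in 2, Fpr2, Ctsd and Dnajc3 in 3, C3ar1 and Sdf2l1 in 4, Cd9 in 5, and Hspa5 and Bcl2a1a in 6. Without both low-gene retinas, a setting chosen after seeing the data, the limma adjusted p of these genes ran from 0.00319 (Adgre1) to 0.0286 (Naglu). Within experiment 1 alone 8 genes were called higher and 26 lower, of which 7 and 26 were among the 237. No gene passed an adjusted p of 0.05 in a limma test of whether the change differed between the experiments (212 had an unadjusted p below 0.05).

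Leaving out EIU 2 weeks replicate 1 gave 292 higher and 260 lower genes, and leaving out EIU 18 h replicate 4 gave 101 and 203. Without both there were 336 and 407, which included all 103 higher and 133 of the 134 lower DEGs. Leaving out EIU 18 h replicate 1, 2, 3 or 5 lowered the counts to 65 and 81, 40 and 70, 43 and 73, and 60 and 82. At 2 weeks, leaving out replicate 2, 3, 5, 6 or 7 gave 66 and 98, 69 and 89, 58 and 92, 49 and 79, and 67 and 93. In all 12 such fits 37 of the higher and 64 of the lower DEGs were called.

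**Figure D5:**
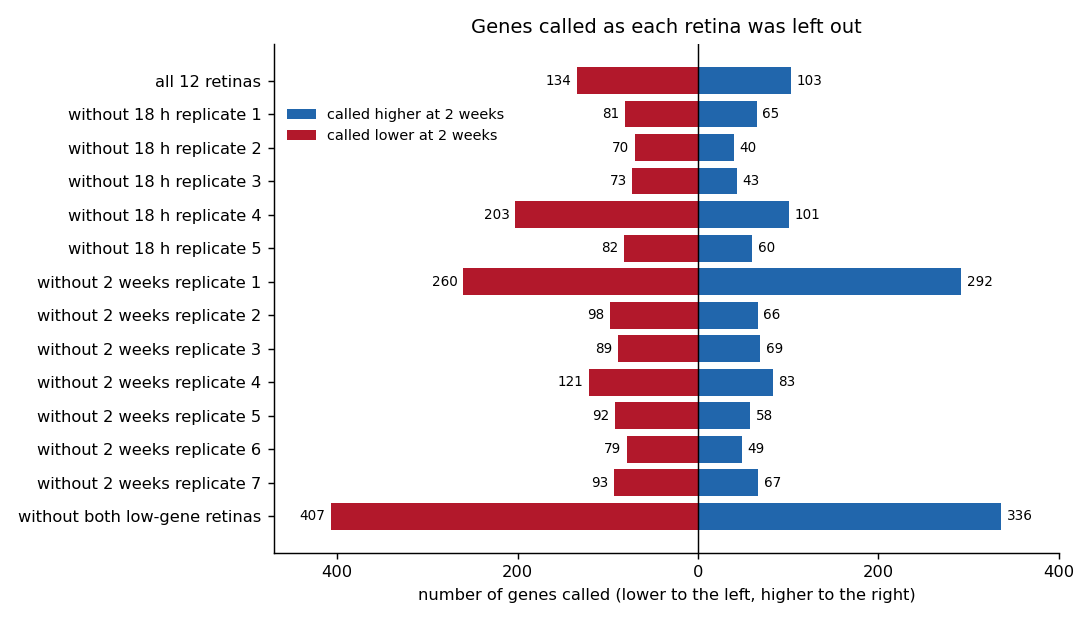
Number of genes called lower (red, left) and higher (blue, right) at 2 weeks on the x axis, for all 12 retinas, for each fit with 1 retina left out, and for the fit without EIU 18 h replicate 4 and EIU 2 weeks replicate 1, the low-gene retinas. Counts run from 40 to 336 higher and from 70 to 407 lower.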

How the data were processed

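Microglia of 28 single retinas were profiled by mRNA-Seq. The authors trimmed the reads, aligned them to mm10 with STAR 2.5.3a, quantified Ensembl transcripts with the expectation-maximisation step of Partek, and deposited RPKM values per gene and the alignments of each retina. RPKM is scaled to library size and transcript length, and the estimation can split reads among related genes, so no depth per gene is known. The authors also deposited tables of their own DEG tests (p-values, ratios, fold changes, scores), which were not used.

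The filter required 5 of the 28 retinas to reach an RPKM of 1, and 13164 of 40021 listed genes passed. Values were transformed to log2(RPKM + 1) and the 12 retinas were fitted in limma 3.58.1 (R 4.3.3) with trended empirical Bayes and Benjamini-Hochberg adjustment, after a test on simulated data. Fold changes on this scale understate those of low genes. A gene was called where it changed 2-fold or more and the adjusted p did not exceed 0.05. Differences from naïve came from a fit of all 28. Lists are described by counts and medians. The comparison, the gene lists and the marker lists were chosen with earlier results of these data known.

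Named genes are the called, non-overlapping genes that rose most (12) and fell most (12), up to 4 called members per list and direction by p, genes the study names, and the first and most abundant members of marker lists. Any other gene was chosen once its values had been seen, and some genes are not reported here. Coordinates are GRCm38 (GENCODE M21), and promoters are from RefSeq (GRCm38.p6), matched by symbol. Alternatives were other pseudocounts, filters, scalings, variance models, covariates, thresholds, a replicate block, an untransformed ANOVA model and each retina left out; leaving out both low-gene retinas was chosen after seeing the data. Figures were drawn with Python 3.11.15.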

Additional observations from a re-analysis of the deposited data

Results flagged for a closer look

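Of 182 groups of values examined with Dixon's criterion, in which chance marks about 1 in 20, 15 held a retina that stood apart from the others of its group. In a limma test of whether the change from 18 h to 2 weeks differed between the experiments, no gene had an adjusted p of 0.05 or less and 212 had an unadjusted p below 0.05. It rests on 1 retina of experiment 2 at 18 h, and equality of the experiments was not tested.

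EIU 18 h replicate 4 stood apart 6 times. It had the fewest genes at an RPKM of at least 1 (6969) and the lowest mean correlation with its group (0.774), and was low for Cxcl10 (18.7 RPKM), Cd52 (511 RPKM), Thrsp (0.0402 RPKM) and Il10ra (0.982 RPKM). EIU 2 weeks replicate 1 stood apart 5 times, with 6644 genes, a mean correlation of 0.678, and low values of Ctsc (169 RPKM), P2ry12 (642 RPKM) and Milr1 (3.1 RPKM). The other 4 were the alignments of EIU 18 h replicate 3 (11600000, the fewest of its group), Cxcl13 in EIU 18 h replicate 1 (264 RPKM, low), Il1rn in EIU 2 weeks replicate 5 (0.691 RPKM, high) and Il18bp in EIU 2 weeks replicate 2 (4.1 RPKM, high). The part of the low gene numbers in these values was not tested.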

How the results depend on the processing

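Against 103 higher and 134 lower genes, 204 were lower with all 28 retinas in the fit. Array quality weights gave 867 and 600, equal summed RPKM 175 and 85, experiment 1 alone 8 and 26, and both low-gene retinas left out 336 and 407. A pseudocount of 0.1 gave 89 lower and a pseudocount of 10 gave 58 higher. A fold change of at least 4 left 56 and 79, and an adjusted p of at most 0.01 left 34 and 58. Leaving out 1 retina at a time gave from 40 to 292 higher and from 70 to 260 lower genes. A covariate for experiment or eye, the other filters, no mean-variance trend, untransformed RPKM, quantile normalisation and no fold threshold kept both counts within 1.5 times. Similar counts need not hold the same genes. Quantile normalisation gave 121 and 186, which included 80 of the 103 higher and 104 of the 134 lower DEGs. With a replicate block on the shared numbers 1 gene was higher and 28 lower. Same-numbered retinas correlated from -0.319 to 0.185, and so few values cannot decide whether the numbers pair them. The block fit has fewer residual degrees of freedom. The cause of these shifts was not tested. Of 77 called genes examined singly none changed direction under any alternative, and 48 were called in all 12 fits without 1 retina, 72 with all 28 retinas, 24 in experiment 1 alone and 16 under the block. No log2 fold change could be given for Wfdc21 and Marco on untransformed RPKM, since their 2-week mean was 0. Without counts, no counting error can be given, and genes near an RPKM of 1 are the least certain.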
